A study of Mus musculus with 9 samples.

Results

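The 10 genes described here, which neurons switch on within minutes of activity, were measured in cerebral cortex RNA: Arc, Egr1, Egr2, Fos, Fosb, Junb, Npas4, Nr4a1, Dusp1 and Ier2. They were chosen by name, and all 10 were found among the 54532 genes of the deposited table. The cortex came from 3 male mice of each of 3 inbred strains, aged 8 to 12 weeks: B6 (labelled C57BL6/J), the strain of the reference genome, C3H (C3H/HeJ), another classical strain, and WSB (WSB/EiJ), a wild-derived strain. The labels give no genetic change, injury or drug for any mouse, and the cortex was taken on ice and frozen. Each strain is represented by 3 animals, and the time of day and the handling of the mice before dissection are not given in the sources used here. The study sequenced these cortices to find transcripts that differ between strains whose infarct size differs after stroke, so the questions here were whether the strains differed in these genes, and how far mice of one strain differed from each other.

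Immediate early genes are transcribed without new protein synthesis when calcium entry, cAMP or growth factor signals reach the nucleus of a neuron. The transcription factor CREB, which binds the cAMP response element (CRE), and the serum response factor SRF, which binds the CArG box, carry those signals to their promoters. Their mRNAs are short-lived, so that their level in brain tissue is known to follow recent experience, arousal and handling, and they are widely used to mark recently active cells. Most encode transcription factors that act on a later set of genes, while Arc acts directly at synapses and Dusp1 switches off the kinases that induced it.

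The promoters are shown because CREB and SRF sites are what this group is known for. RefSeq windows on GRCm38.p6 were found for 7 of the 10 genes, Fos, Fosb, Junb, Egr2, Nr4a1, Dusp1 and Npas4, and the 250 bases before each annotated start were searched on both strands. The 4 windows printed here are those of Fos (chr12:85473640-85473889, plus strand), Junb (chr8:84978749-84978998, minus strand), Nr4a1 (chr15:101266596-101266845, plus strand) and the third of 5 windows of Egr2 (chr10:67537619-67537868, plus strand). Those of Fos and Junb lie outside the annotated gene, and those of Nr4a1 and Egr2 lie inside it. Another Egr2 window ends at base 67537565, before the printed one begins, so the printed Egr2 bases may include transcribed sequence. Each is written in the direction of the gene, from the reference strain, with every match in capitals.
Fos: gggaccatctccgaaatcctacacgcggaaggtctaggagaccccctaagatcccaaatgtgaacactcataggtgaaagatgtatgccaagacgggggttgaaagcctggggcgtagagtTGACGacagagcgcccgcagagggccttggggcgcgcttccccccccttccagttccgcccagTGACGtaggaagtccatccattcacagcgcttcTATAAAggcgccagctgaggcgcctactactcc
Junb: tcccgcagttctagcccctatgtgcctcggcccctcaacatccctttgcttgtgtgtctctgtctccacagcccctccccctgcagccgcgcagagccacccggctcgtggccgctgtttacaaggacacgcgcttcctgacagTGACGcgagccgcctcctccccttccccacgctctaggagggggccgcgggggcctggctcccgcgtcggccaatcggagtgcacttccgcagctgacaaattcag
Nr4a1: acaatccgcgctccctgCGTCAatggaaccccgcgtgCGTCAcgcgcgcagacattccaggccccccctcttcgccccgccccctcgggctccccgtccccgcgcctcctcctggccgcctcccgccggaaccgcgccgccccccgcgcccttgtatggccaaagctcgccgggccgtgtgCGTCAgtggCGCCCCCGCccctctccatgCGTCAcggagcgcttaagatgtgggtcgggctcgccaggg
Egr2: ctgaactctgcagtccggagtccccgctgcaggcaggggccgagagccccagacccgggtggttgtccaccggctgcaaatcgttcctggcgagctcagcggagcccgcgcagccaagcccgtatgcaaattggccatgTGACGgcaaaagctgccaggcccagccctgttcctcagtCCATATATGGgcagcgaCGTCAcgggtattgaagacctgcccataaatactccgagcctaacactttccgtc
The capitals mark the CRE half-site TGACG (or its reverse complement CGTCA), the EGR site GCGGGGGCG, the TATA box TATAAA and the CArG box. The half-site is part of the full CRE, TGACGTCA, so the 2 motifs overlap. A match is a run of letters and not a measured binding site.

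The CRE half-site was found in the windows of 7 of 7 genes, against 19.8% of 27025 genes and 17.8% of 32851 windows in the whole table. Egr2 counts here through its windows 3, 4 and 5, which largely overlap, and its windows 1 and 2 held 0 half-sites. The window of Nr4a1 held 4 matches, beginning 233, 213, 69 and 40 bases before the start, and that of Dusp1 held 3. The window of Fos held matches 129 and 66 bases before the start. The full CRE was found in Dusp1 alone, 143 bases before the start (1.55% of all windows). Within the 250 bases searched, the CArG box was found in Egr2 alone (1.47%), 72 bases before the start of the window printed above. Bases farther from the start were not searched, so a gene without a match here may still have the site. The EGR site, the sequence bound by Egr1 and Egr2 themselves, was found in Fosb and Nr4a1 (2.57%), and the TATA box in Fos (12.4%). These letters come from the B6 reference, and changes in them in C3H or WSB were not analysed here.

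**Figure D1:**
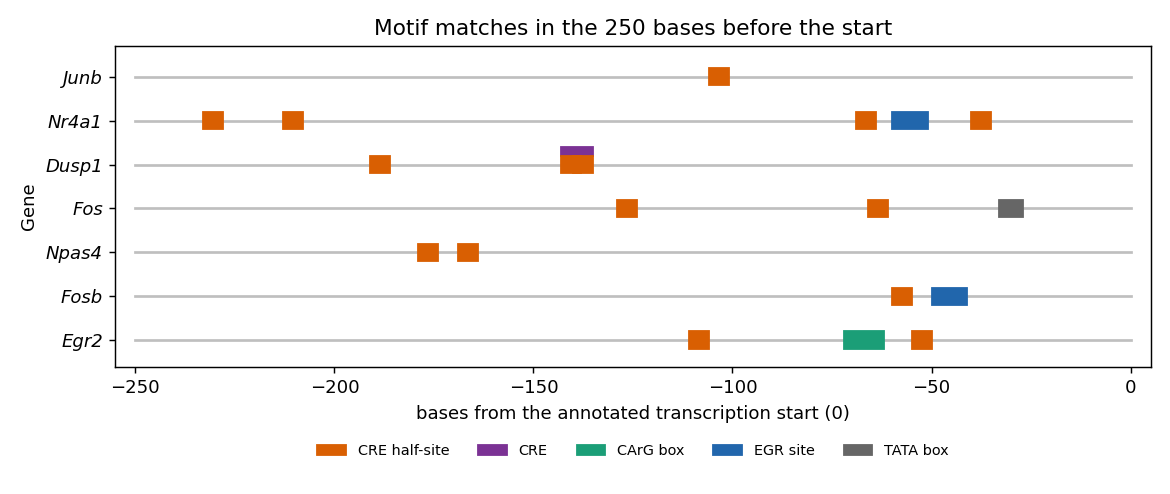
Matches of 5 motifs (coloured boxes) in the 250 bases before the annotated start of 7 genes, with the distance from the start in bases on the x axis and one gene per row. Every row holds at least 1 orange CRE half-site, and Egr2 is drawn from the third window.

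Levels are given in FPKM, fragments per kilobase of gene length, which the authors had scaled for library size and which can be compared between genes. Reads recovered from them numbered 16317439 to 21562429 per mouse, and the values of the 10 genes rest on 127 to 8623 reads per gene and mouse. Some genes of the other lists named below rest on fewer, down to 52 reads for Plin4. The tissue check gave summed levels of 6 cortical neuron markers between 649.9 and 776.7 FPKM in the 9 mice. Neighbouring tissue varied within strains: the summed level of 6 striatal markers was 76.96 to 431.6 FPKM over the 9 mice, and that of 5 choroid plexus markers was 64.45 to 762.4 FPKM. The part of these markers in the results below was not tested. In such bulk RNA, fewer cells of a type and less RNA per cell cannot be told apart. C3H mouse 2 stood apart from the other C3H mice, in that leaving it out raised the number of genes called by limma, the test used throughout, from 956 to 2301 between C3H and B6 and from 1182 to 2002 between WSB and C3H.

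Over the 9 mice, Arc and Egr1 had the highest mean levels of the group, at 73.9 and 73.5 FPKM, and Egr2 the lowest at 3.13 FPKM. Arc exceeded Egr1 in 4 of 9 mice, so these neighbours did not differ beyond their spread. Below them, Junb (37.1 FPKM) and Nr4a1 (27.6 FPKM) kept their places in 9 of 9 mice. Dusp1 (14.0 FPKM) exceeded Fos (12.9 FPKM) in 6 of 9 mice, and Fos exceeded Ier2 (7.54 FPKM) in 9 of 9. Ier2 exceeded Npas4 (6.68 FPKM) in 8 of 9 mice, Npas4 exceeded Fosb (4.45 FPKM) in 7, and Fosb exceeded Egr2 in 7. The ratio of Arc to Egr1, looked at after its values were seen, ran from 0.634 to 0.832 in C3H, from 0.878 to 1.07 in B6 and from 1.01 to 2.04 in WSB, without overlap between C3H and either other strain.

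**Figure D2:**
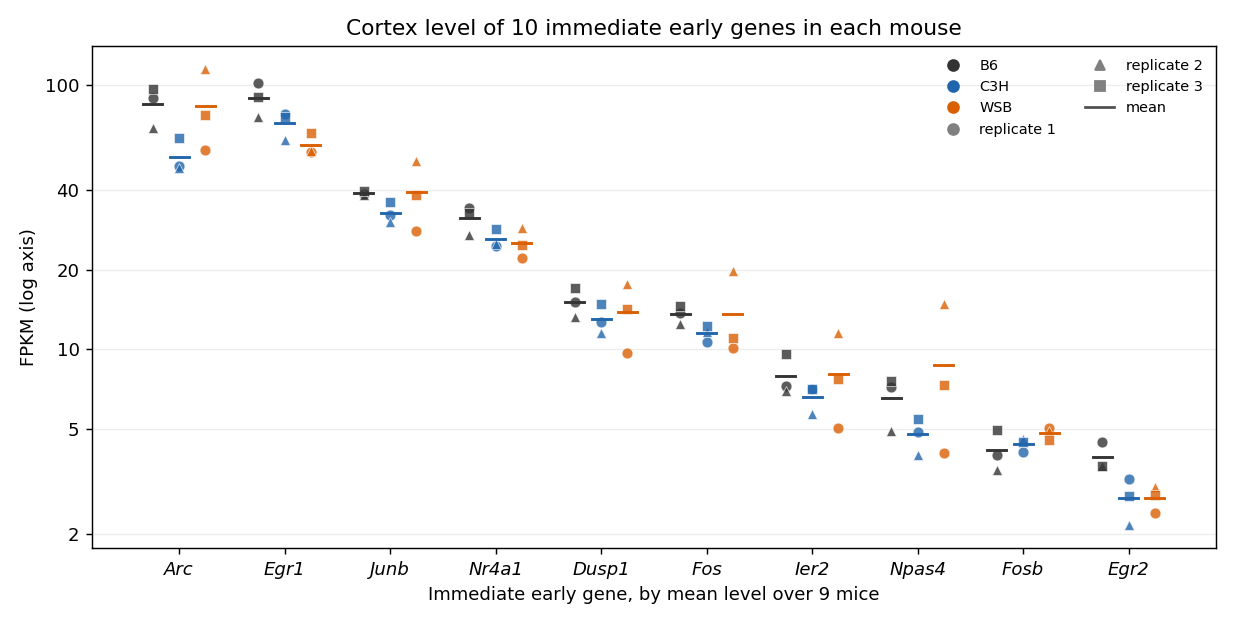
Level of each gene in each mouse (FPKM, log axis), coloured by strain, with the symbol giving the replicate and the short line the mean of 3 mice. The WSB points of Arc, Junb, Dusp1, Fos, Ier2 and Npas4 lie far apart, with replicate 2 at the top, while those of Egr1, Nr4a1, Fosb and Egr2 lie close together.

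The EGR factors, zinc finger proteins that bind GC-rich promoters, gave the one call in the group. Egr1 (chr18:34859823-34864984 on GRCm38, plus strand; ENSMUSG00000038418), a factor of plasticity and memory consolidation, measured 102, 75.5 and 90.2 FPKM in the 3 B6 mice, 77.7, 61.9 and 75.8 in C3H, and 56.0, 56.4 and 66.0 in WSB. All 3 WSB mice lay under all 3 B6 mice, and the C3H mice overlapped both other strains. WSB averaged 59.5 ± 5.61 FPKM (SD, n = 3), against 89.2 ± 13.3 (SD, n = 3) for B6. The log2 difference was -0.58 (SE 0.12) and passed the limma test with an adjusted p of 0.0381. It passed in 8 of 11 other settings, and, of the 6 fits that leave out a mouse, only without B6 mouse 2, with an adjusted p of 0.0286. The adjusted p was 0.088 without B6 mouse 1, 0.119 without B6 mouse 3, 0.119 without WSB mouse 1, 0.117 without WSB mouse 2 and 0.0524 without WSB mouse 3.

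Egr2 (chr10:67535475-67542188, plus strand; ENSMUSG00000037868), best known for its role in myelination and hindbrain patterning and induced by activity in cortex, measured 4.47, 3.61 and 3.62 FPKM in B6, 3.24, 2.16 and 2.79 in C3H and 2.41, 3.01 and 2.82 in WSB. Each mouse of C3H and WSB lay under each B6 mouse. The log2 difference from B6 was -0.49 (SE 0.14) for WSB and -0.51 (SE 0.17) for C3H, and neither passed the limma test (adjusted p of 0.0895 and 0.135). Both comparisons share the same B6 mice. The counts behind Egr2 were 136 to 272 reads per mouse.

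Fos, Fosb and Junb encode subunits of AP-1, a dimeric factor that binds many later-induced genes. Fos (chr12:85473890-85477273, plus strand; ENSMUSG00000021250), the classical marker of recent neuronal activity, measured 13.7, 12.4 and 14.6 FPKM in B6, 10.7, 11.6 and 12.2 in C3H and 10.2, 19.7 and 11.0 in WSB. The C3H mice lay just under the B6 mice, and the WSB mice reached both below and above all others. Its log2 difference from B6 was -0.06 (SE 0.24) for WSB and -0.24 (SE 0.09) for C3H, with limma adjusted p of 0.928 and 0.181. Junb (chr8:84974484-84978718, minus strand; ENSMUSG00000052837) measured 38.6, 38.5 and 39.7 FPKM in B6, 32.2, 30.3 and 36.1 in C3H and 28.0, 51.8 and 38.4 in WSB. B6 mice were almost alike for Junb, with an SD of 0.634 FPKM around 39.0 (n = 3), whereas WSB mice had an SD of 11.9 around 39.4 (n = 3). The last 351 bases of Junb overlap Prdx2 on the opposite strand (64.67 to 95.68 FPKM), and whether the counting used strand is not given in the sources used here, so their reads may not be fully told apart.

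Fosb (chr7:19302696-19310051, minus strand; ENSMUSG00000003545), whose truncated product accumulates with repeated activity, measured 3.999, 3.49 and 4.97 FPKM in B6, 4.09, 4.57 and 4.46 in C3H and 5.03, 4.89 and 4.54 in WSB. It was the one gene of the 10 with a log2 difference above 0 from B6 for both strains, 0.22 (SE 0.14) for WSB and 0.09 (SE 0.14) for C3H, and neither of them passed the limma test (adjusted p of 0.432 and 0.743). Its WSB mice stood closest together of any of the 10 genes, with a ratio of 1.11 between the highest and the lowest.

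Arc and Npas4 are the members most tied to neurons, and Nr4a1 is described after them. Arc (chr15:74669083-74672570, minus strand; ENSMUSG00000022602), which encodes a protein that removes AMPA receptors from synapses, measured 89.5, 68.8 and 96.7 FPKM in B6, 49.2, 48.4 and 63.0 in C3H and 56.9, 115 and 77.0 in WSB. All C3H mice lay under all B6 mice, and the WSB mice overlapped both. C3H averaged 53.6 ± 8.22 FPKM (SD, n = 3), against 85.0 ± 14.5 (SD, n = 3) for B6, a log2 difference of -0.66 (SE 0.15) with a limma adjusted p of 0.058. This value sat at the threshold: it passed in 5 of 11 other settings, and without B6 mouse 2 the difference was -0.81 with an adjusted p of 0.041. Arc differed by 0.58 (SE 0.24) on the log2 scale between WSB and C3H, with an adjusted p of 0.201 by limma.

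Npas4 (chr19:4984355-4989971, minus strand; ENSMUSG00000045903), a factor induced in neurons by calcium entry that shapes inhibitory synapses, measured 7.17, 4.90 and 7.58 FPKM in B6, 4.87, 3.98 and 5.46 in C3H and 4.04, 14.8 and 7.32 in WSB. The WSB mice differed 3.68-fold from lowest to highest, the widest range of the 10 genes in any strain, and spanned nearly all values of the other mice. The log2 difference was 0.24 (SE 0.43) between WSB and B6, and without WSB mouse 2 it was -0.24. By limma the adjusted p was 0.813 with all mice and 0.741 without that mouse. Nr4a1 (chr15:101254269-101274795, plus strand; ENSMUSG00000023034), an orphan nuclear receptor also induced in macrophages and T cells, measured 34.4, 27.1 and 32.8 FPKM in B6, 24.7, 25.0 and 28.5 in C3H and 22.2, 28.7 and 24.9 in WSB. Its ranges overlapped in every pair of strains, and its log2 difference from B6 was -0.32 (SE 0.12) for WSB and -0.27 (SE 0.11) for C3H, with limma adjusted p of 0.21 and 0.194.

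Dusp1 and Ier2 respond in many cell types, including glia and vessels. Dusp1 (chr17:26505590-26508519, minus strand; ENSMUSG00000024190), a phosphatase that inactivates MAP kinases, measured 15.1, 13.3 and 17.0 FPKM in B6, 12.7, 11.6 and 14.8 in C3H and 9.68, 17.7 and 14.2 in WSB. Ier2 (chr8:84661331-84662852, minus strand; ENSMUSG00000053560), a small nuclear protein of the fast growth factor response, measured 7.27, 6.96 and 9.59 FPKM in B6, 7.06, 5.70 and 7.08 in C3H and 5.02, 11.5 and 7.73 in WSB. Both genes overlapped between all strains, and in WSB both ran from mouse 1, the lowest of all 9 mice, to mouse 2, the highest.

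By strain, 1 of 10 genes was called lower in WSB than in B6 and 0 of 10 higher, where limma called 5.9% of all 20746 genes, 3.09% lower and 2.81% higher. Of the 10, 3 had an unadjusted p under 0.05 (20.4% of all genes), 8 had a log2 difference under 0 (49.7%), and 2, Egr1 and Egr2, had ranges wholly under those of B6 (13.1%). Their median log2 difference was -0.07, against 0.00 over all genes. The signs depended on the mice included: 6 of the 10 turned in at least 1 fit that left out a mouse, and Egr1, Egr2, Nr4a1 and Fosb kept theirs. Without WSB mouse 1, the log2 difference of Fos was 0.12, of Junb 0.19, of Arc 0.16, of Dusp1 0.07 and of Ier2 0.26. Without WSB mouse 2 it was -0.36 for Fos, -0.25 for Junb, -0.35 for Arc, -0.36 for Dusp1, -0.33 for Ier2 and -0.24 for Npas4.

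Between C3H and B6, 0 of 10 genes were called by limma, against 4.64% of 20602 genes, 2.38% higher and 2.26% lower. At an unadjusted p under 0.05 there were 5 of 10 (24.1% of all genes), by limma with voom weights 1 was called, Arc, and with each library's trend with GC content removed 2 were called, Arc and Junb. The log2 difference was under 0 for 9 of 10 genes (50.4% of all genes), with a median of -0.26 against 0.00, and 4, Fos, Junb, Egr2 and Arc, had ranges wholly under those of B6 (14.0%). GC content moved with this comparison: over genes of at least 1 FPKM the log2 difference had a Spearman correlation of 0.48 with GC content, and the 10 genes had a GC content of 51.4% to 62.6% against a median of 50.0%. With the GC trend removed, Arc had a difference of -0.81 (limma adjusted p of 0.0238) and Junb of -0.43 (adjusted p of 0.0122), and Fosb had -0.03 in place of 0.09.

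Between WSB and C3H, 0 of 10 genes were called by limma (5.74% of 20607 genes, 2.61% higher and 3.13% lower), also 0 with voom weights, and 2, Egr1 and Arc, had an unadjusted p under 0.05 (23.8% of all genes). The log2 difference was under 0 for 2 of 10 (48.9% of all genes), Egr1 and Nr4a1, with a median over the 10 of 0.16 against 0.01 over all genes, and 0 of 10 had ranges apart (28.6% of all genes). GC content moved with this comparison too, with a Spearman correlation of -0.40 over genes of at least 1 FPKM. With the GC trend removed, Nr4a1 had a difference of 0.016, Egr1 of -0.20 and Arc of 0.66 (limma adjusted p of 0.93, 0.207 and 0.107).

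**Figure D3:**
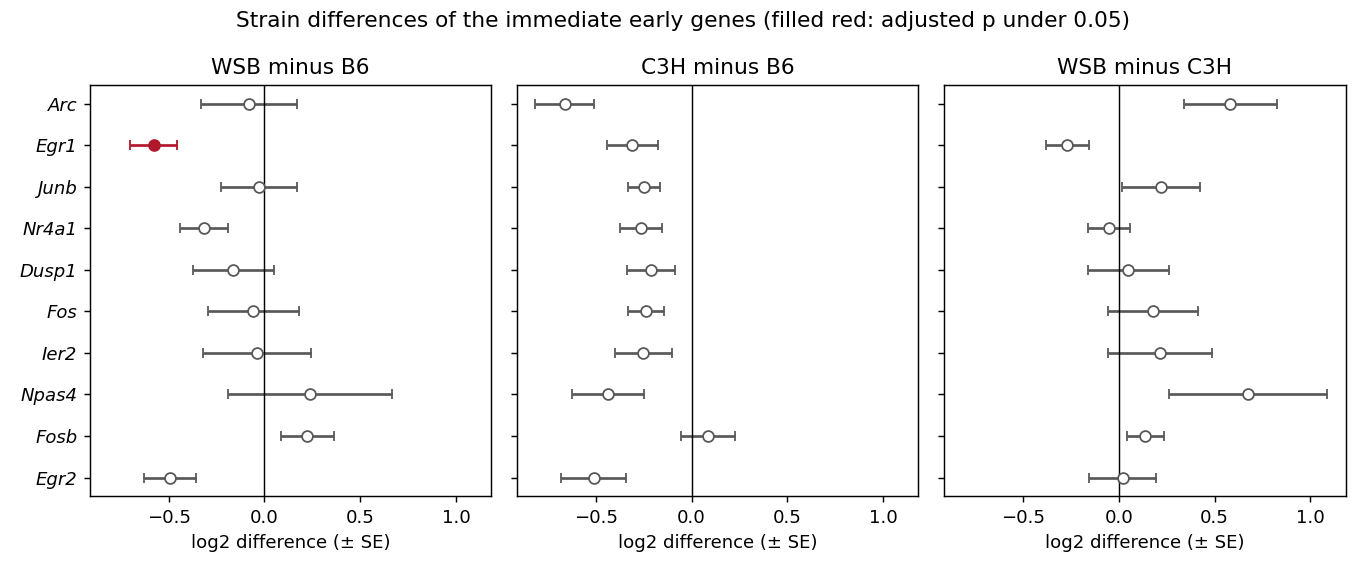
Log2 difference of each gene between 2 strains on the log2(FPKM + 0.1) scale, with its standard error as the bar, in the 3 comparisons. Egr1 in WSB minus B6 is the single filled point (adjusted p of 0.0381), and 9 of 10 points of C3H minus B6 lie left of 0.

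WSB mice differed widely from each other in most of these genes. The median SD over the 10 genes, on the log2 scale, was 0.20 in B6, 0.18 in C3H and 0.44 in WSB, while the median over 13010 genes of at least 1 FPKM was 0.13, 0.14 and 0.13. Of the 10 genes, 8 in B6, 6 in C3H and 9 in WSB lay above that median. In WSB 6 of them, Npas4, Ier2, Fos, Arc, Junb and Dusp1, were among the 10% of genes with the widest spread, with SDs of 0.93, 0.59, 0.52, 0.51, 0.44 and 0.44, and 0 of 10 were there in B6 or C3H. The remaining 4 did not share this: in WSB the SD was 0.18 for Nr4a1, 0.16 for Egr2, 0.13 for Egr1 and 0.07 for Fosb. Counting error alone gives an SD of 0.02 to 0.11 for the 10 genes in WSB. With 3 mice a strain, a difference in spread between strains was not tested, and the WSB median was 0.26 without mouse 1 and 0.24 without mouse 2.

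**Figure D4:**
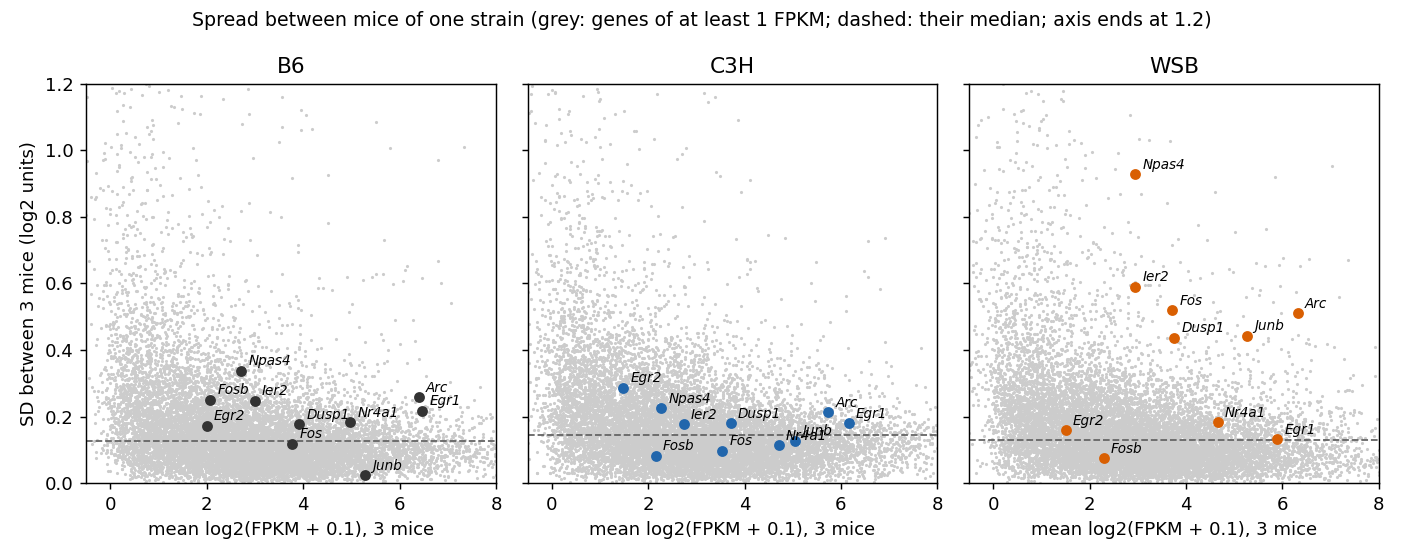
SD between the 3 mice of a strain (log2 units) against mean level, with genes of at least 1 FPKM in grey, their median as a dashed line and the 10 genes as labelled coloured points. Npas4, Ier2, Fos, Arc, Junb and Dusp1 lie among the 10% of genes with the widest spread in WSB alone. Npas4 in B6, with an SD of 0.3376, lies just under that limit of 0.338.

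The mice were ordered alike by most of the genes. In WSB, mouse 1 was lowest for 9 of 10 genes, the exception being Fosb, and mouse 2 was highest for 8 of 10, the exceptions being Fosb and Egr1, whereas among all genes WSB mouse 1 was lowest for 31.9% and mouse 2 highest for 35.4%. In B6, mouse 2 was lowest for 10 of 10 genes (29.3% of all genes) and mouse 3 highest for 7. In C3H, mouse 2 was lowest for 7 of 10 (42.9% of all genes) and mouse 3 highest for 7. Averaged over the 10 genes, the deviation from the strain mean was -0.36 for WSB mouse 1 and 0.38 for WSB mouse 2 on the log2 scale, against -0.19 for B6 mouse 2 and -0.14 for C3H mouse 2. The median deviation over all genes lay between -0.02 and 0.02 in every mouse.

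**Figure D5:**
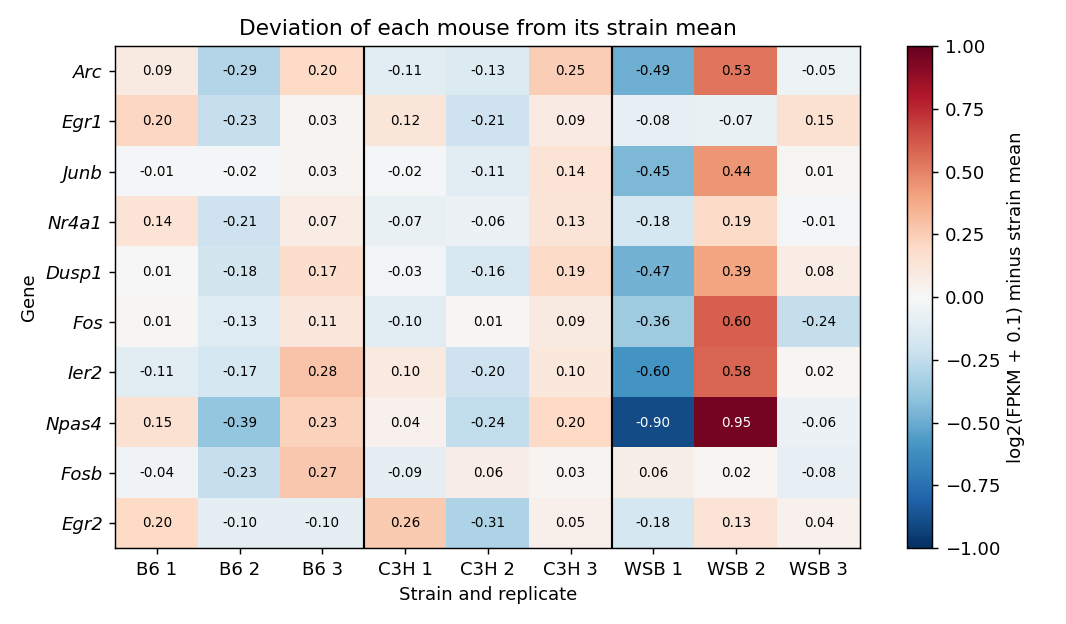
Deviation of each mouse from the mean of its strain, in log2(FPKM + 0.1), for the 10 genes (rows) and 9 mice (columns), with red above and blue below the strain mean. The column of WSB mouse 1 is blue and that of mouse 2 red for 8 of 10 genes, and B6 mouse 2 is below 0 in every row.

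How closely each gene followed the others was described by the correlation of its deviations with the mean deviation of the other 9 genes over the 9 mice. It was 0.986 for Npas4, 0.977 for Arc, 0.970 for Dusp1, 0.932 for Ier2, 0.907 for Junb, 0.884 for Nr4a1 and 0.840 for Fos. It was 0.517 for Egr2, 0.315 for Egr1 and 0.187 for Fosb. Without WSB mouse 2 it was 0.982 for Npas4, 0.736 for Fos, 0.608 for Egr1 and 0.197 for Fosb. These values share libraries and strain means and carry no test.

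Among 13000 other genes, those whose deviations were most like the mean of the 10 were Nfasc (0.971), Sdf2l1 (0.969), Tfap4 (0.967), Gm27030 (0.965), Git2 (0.960), Prr5 (0.958), Manf (0.958), Cryab (0.953), Gabarapl2 (0.952) and Fh1 (0.946). Nfasc encodes neurofascin of the axon initial segment, Sdf2l1 and Manf are proteins of the endoplasmic reticulum, and Cryab is a small heat shock protein. None of them is on the lists of activity genes used here, and no listed gene was among the 100 most alike. Ranked from 9 mice among so many genes, such a list is a description only.

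The other rapid-response genes, 42 genes named for induction by activity or growth factors and kept apart from the 10, did not follow one pattern. Among the 39 of them with at least 1 FPKM, WSB mouse 2 was highest of its strain for 11 and lowest for 19, and the median correlation with the 10 genes was 0.05 (0.03 over all genes). Btg2, an antiproliferative gene, measured 6.25, 12.4 and 5.69 FPKM in WSB, and Ccn1, a matricellular protein of vessels, measured 4.50, 8.15 and 3.20. Both were highest in WSB mouse 2, as Fos and Npas4 were. Nr4a2, a nuclear receptor of the same family as Nr4a1, had its widest spread in B6 instead, at 7.09, 14.1 and 16.1 FPKM. Egr3, Egr4, Nr4a3 and Homer1, looked at after their values were seen because they are close relatives or classical neuronal targets, were each lowest in WSB mouse 2. Other relatives of the 10 genes were not. Jun was highest in that mouse, at 22.2, 26.6 and 17.0 FPKM in WSB, and Jund, Fosl1, Fosl2 and Nr4a2 were neither highest nor lowest there. Nr4a3 measured 11.7, 6.12 and 7.49 FPKM in the 3 WSB mice, the reverse order of Nr4a1 at its ends.

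Between strains, 3 of these 42 genes were called lower in WSB than in B6 by limma and 0 higher, a count read against the 3.09% of all genes called lower. Per1, a clock gene also induced by light and activity, measured 25.1, 24.8 and 24.0 FPKM in B6 and 19.7, 19.2 and 19.9 in WSB (log2 difference -0.33, SE 0.06, adjusted p of 0.0214). Ier3, a stress-response gene, measured 6.96, 7.62 and 5.73 FPKM in B6 and 4.63, 4.03 and 4.16 in WSB (-0.64, SE 0.12, adjusted p of 0.0273). Ptgs2, the inducible cyclooxygenase, measured 3.49, 3.27 and 3.29 FPKM in B6 and 2.35, 1.27 and 1.59 in WSB (-0.95, SE 0.21, adjusted p of 0.0437). All 3 had ranges apart, but with one mouse left out Per1 passed in 0 of 6 fits, Ier3 only without B6 mouse 3 (0.0215) and Ptgs2 only without WSB mouse 1 (0.0114). In the other fits their adjusted p lay between 0.0549 and 0.13. With eBayes without a trend, and with the replicate number as a block, 0 of the 42 were called. Ier3 also lost its call with voom weights (0.0563), Per1 with all 9 mice in one fit (0.0557) and Ptgs2 with no filter on low values (0.0689). Other genes gained a call as lower in WSB. Klf10, at 7.40, 5.82 and 10.6 FPKM in WSB and wholly under B6, gained it with voom weights (0.0211), all 9 mice (0.0462) and without WSB mouse 3 (0.0147). Trib1 gained it with voom weights (0.0252) and all 9 mice (0.0463), and Dusp4 without B6 mouse 1 (0.0207).

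Between C3H and B6, 3 of the 42 were called lower by limma and 0 higher, beside 2.26% of all genes called lower. Klf10, a Krüppel-like factor of growth factor signalling, measured 13.4, 11.8 and 13.1 FPKM in B6 and 7.29, 6.35 and 6.25 in C3H, a log2 difference of -0.93 (SE 0.10, adjusted p of 0.00194) that passed with any one mouse left out. Klf4, a related factor, differed by -0.72 (SE 0.14, adjusted p of 0.0366), and Ptgs2 by -0.59 (SE 0.12, adjusted p of 0.0379). With one mouse left out, both passed only without C3H mouse 2, at 0.0432 and 0.0215, and the others gave 0.0754 to 0.136. With the GC trend removed, Ptgs2 had a difference of -0.33 and an adjusted p of 0.11. Ptgs2 also lost its call with all 9 mice in one fit (0.1) or without a trend (0.0572). Only Klf10 of the 42 was called with the replicate block or with no filter on low values. Trib1 gained a call as lower in C3H with voom weights (0.0331), all 9 mice (0.04655) and the GC trend removed (0.0441). Klf2 gained one with the GC trend removed (0.0365), Dusp5 without B6 mouse 1 (0.0496) and Homer1 without C3H mouse 2 (0.0245), all lower in C3H.

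Between WSB and C3H, 2 of the 42 were called lower in WSB by limma and 0 higher (3.13% of all genes were called lower). Ier3 differed by -0.64 (SE 0.10, adjusted p of 0.0113) and lost the call without C3H mouse 1 (0.0621) or C3H mouse 3 (0.0571). Dusp4, a nuclear MAP kinase phosphatase, measured 6.78, 7.40 and 8.22 FPKM in C3H and 5.27, 4.72 and 5.37 in WSB (-0.53, SE 0.11, adjusted p of 0.031). It kept its call with one mouse left out only without C3H mouse 2 (0.0452), the others giving 0.0635 to 0.116, and had an adjusted p of 0.0514 with the GC trend removed. With the replicate block 0 of the 42 were called, and with all 9 mice in one fit or without a trend Ier3 alone was. Nfil3 gained a call as higher in WSB with the filter of 1 FPKM (0.03845), rescaling to total reads (0.0393) and the GC trend removed (0.0163). Per1 gained one as lower in WSB without C3H mouse 2 (0.023).

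The 8 delayed activity-response genes, neuropeptides, growth factors and synaptic proteins induced after the first wave, gave 0 calls by limma in any comparison. An unadjusted p under 0.05 was found for 1 of 8 between WSB and B6, 3 of 8 between C3H and B6 and 2 of 8 between WSB and C3H, where all genes gave 20.4%, 24.1% and 23.8% at that level and 5.9%, 4.64% and 5.74% called. Between C3H and B6, Pcsk1 was called with voom weights (log2 difference -0.61, adjusted p of 0.0462) and Nptx2, a synaptic pentraxin, with the GC trend removed (-0.32, adjusted p of 0.0302). Without C3H mouse 2, Bdnf (adjusted p of 0.0495) and Pcsk1 (0.0282) were called lower than in B6, and Pcsk1 (0.0392) higher in WSB than in C3H. These alternatives single out Nptx2 and Bdnf after their values were seen. Scg2, a secretory granule protein and peptide precursor, measured 76.3, 131 and 83.2 FPKM in WSB with mouse 2 the highest, while Bdnf, the neurotrophin, measured 5.27, 3.68 and 5.12 with mouse 2 the lowest. Inhba, a subunit of activin, measured 1.35, 1.22 and 2.12 FPKM in WSB, and Pcsk1, a prohormone convertase, had its widest spread in C3H at 4.69, 7.48 and 5.44. Mouse 2 of WSB was highest for 4 of the 8 genes and lowest for 4.

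Of the 18 upstream regulators, the factors and kinases that act on immediate early promoters, 0 were called by limma between WSB and B6 (4 at an unadjusted p under 0.05) and 0 between C3H and B6 (also 4), where 5.9% and 4.64% of all genes were called and 20.4% and 24.1% had such a p. Without C3H mouse 2, 3 were called between C3H and B6, Creb1 (-0.87, adjusted p of 0.0262), Mef2c (-0.61, adjusted p of 0.0303) and Rps6ka4 (0.37, adjusted p of 0.0368), and Creb1 was also called between WSB and C3H (0.74, adjusted p of 0.0403). Between WSB and C3H 1 was called, Rps6ka4, a kinase of CREB and histone H3, at 24.9, 21.2 and 25.4 FPKM in C3H and 17.7, 16.6 and 16.4 in WSB (log2 difference -0.49, SE 0.09, adjusted p of 0.0233). With one mouse left out it passed only without C3H mouse 2 (0.0111), the others giving 0.0652 to 0.106, and it lost its call with the replicate block (0.0671) or without a trend (0.0815). WSB mouse 2 was highest for 0 of the 18 and lowest for 12. Creb1 itself measured 3.85, 3.31 and 2.87 FPKM in B6, 1.85, 3.08 and 1.68 in C3H and 3.45, 2.62 and 3.01 in WSB. Rps6ka5, a close relative of Rps6ka4, ranged from 1.61 to 2.85 FPKM in B6, and Mapk3, the kinase ERK1, from 51.95 to 84.2 in WSB.

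The 5 glucocorticoid-responsive genes, targets of the stress hormone receptor, were all highest in WSB mouse 2 and all lowest in WSB mouse 3. Among all genes, WSB mouse 2 was highest for 35.4% and WSB mouse 3 lowest for 34.0%. Plin4, a lipid droplet protein, measured 1.27, 2.74 and 1.01 FPKM in WSB, Tsc22d3 (GILZ) measured 25.4, 35.6 and 18.2, and Fkbp5, a chaperone of the receptor, measured 5.59, 8.09 and 4.46. Their lowest WSB mouse differed from that of the immediate early genes, of which 9 of 10 were lowest in WSB mouse 1. In B6 and in C3H, mouse 1 was lowest for 4 of 5, whereas mouse 2 was lowest for 10 and 7 of the 10 immediate early genes. Mouse 3 was highest for 3 of 5 in both strains, and for 7 of the 10 immediate early genes in both. Over the 9 mice, the median correlation of the 5 genes with the 10 genes was 0.47, against 0.03 over all genes. None of the 5 was called by limma in any comparison, where 5.9%, 4.64% and 5.74% of all genes were. An unadjusted p under 0.05 was found for 2 of 5 between WSB and B6, 1 between C3H and B6 and 1 between WSB and C3H (20.4%, 24.1% and 23.8% of all genes). Sgk1, a kinase named because it was called under alternatives, was higher in WSB than in B6 with voom weights (0.62, adjusted p of 0.0329) and without WSB mouse 3 (0.83, adjusted p of 0.0141), and higher than in C3H without WSB mouse 3 (0.61, adjusted p of 0.0403).

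Markers of other cells were set beside these patterns. In WSB, the striatal sum was 76.96 FPKM in mouse 1, 155 in mouse 2 and 208.3 in mouse 3, so its lowest mouse was that of the immediate early genes and its highest was not. In B6 the striatal sum was 431.6, 235.8 and 104.5 FPKM, with mouse 2 in the middle, and the choroid plexus sum was 66.69, 762.4 and 64.45, with mouse 2, the lowest for 10 of 10 immediate early genes, far above the others. In C3H the striatal sum was 183.1, 98.07 and 264.2 FPKM. Its lowest mouse, 2, and its highest, 3, were each also that of 7 of 10 immediate early genes. The choroid plexus sum in C3H was 92.12, 446.5 and 654.7 FPKM. All 6 striatal markers had log2 differences under 0 in WSB and in C3H against B6, with medians of -0.70 and -0.33. By limma, 0 of 6 were called (5.9% and 4.64% of all genes) and 0 had an unadjusted p under 0.05 (20.4% and 24.1%). The 6 hippocampal markers summed to 7.06 to 42.9 FPKM in the 9 mice, and 0 were called. The 5 oligodendrocyte markers summed to 679.2 to 864.3 FPKM in B6 and 366.0 to 527.1 in WSB (1 of 5 called lower, beside 3.09% of all genes). In WSB they ran from mouse 1 (366.0) to mouse 2 (527.1), as most of the immediate early genes did. In B6 their sum was 864.3, 679.2 and 697.6 FPKM, with mouse 2 the lowest and mouse 1 the highest. In C3H it was 645.6, 645.3 and 859.1 FPKM, with mice 1 and 2 almost equal and mouse 3 the highest. The 5 blood markers summed to 632.3 to 1010 FPKM in C3H and 216.5 to 254.3 in B6 (3 of 5 called higher, beside 2.38% of all genes). The 6 microglial markers summed to 102.3 to 104.5 FPKM in WSB, 118.3 to 123.3 in B6 and 124.4 to 150.2 in C3H, and the 5 endothelial markers to 22.0 to 28.6, 36.0 to 39.6 and 32.3 to 46.0. In WSB, 1 of 6 microglial and 2 of 5 endothelial markers were called lower than in B6 (3.09% of all genes), and as many lower than in C3H (3.13%). In C3H, 1 of 6 microglial markers was called higher than in B6 (2.38%). Every marker reached 1 FPKM in at least 1 mouse, but the endothelial marker Ly6c1 was listed at 0 in all 3 WSB mice. It measured 10.52 to 10.95 FPKM in B6 and 11.97 to 18.13 in C3H, so the endothelial sums of WSB lack this gene. Of the other endothelial markers, Cldn5, Flt1 and Pecam1 had ranges that overlapped in every pair of strains. Slco1a4 was called lower in WSB than in B6 and in C3H (limma adjusted p of 0.0358 and 0.04025), and in 0 fits that left out a mouse. The part of these cells in the levels of the immediate early genes was not tested.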

How the data were processed

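Cortex RNA of 3 male mice per strain was sequenced with paired-end reads. The authors trimmed adapters with Cutadapt and deposited an FPKM per gene and mouse. The submitters' processing notes name STAR, HTSeq and DESeq2; their versions, the build and the use of strand are not given in the sources used here. The gene coordinates matched GENCODE M21 on GRCm38 for 53499 of 54532 genes, and gene length was taken from the deposited table. FPKM times gene length gave whole reads within a tolerance of 0.001 for all genes. No 2 mice of a strain agreed within sampling noise.

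Strains were compared in pairs with limma 3.58.1 in R 4.3.3 (two-sided, eBayes with a trend) on log2(FPKM + 0.1), which understates changes of low genes. Genes averaging 0.1 FPKM or more over the 6 mice entered the test, with Benjamini-Hochberg adjustment over all of them and a threshold of 0.05. All 10 members passed the filter. The test was checked on simulated counts. The members and all lists were chosen with earlier results of these data known. Genes named were all members and, from each other list, every called gene and the 3 with the widest spread in a strain, plus the 10 genes most like the members. Egr3, Egr4, Nr4a3, Homer1, Bdnf, Nptx2, Mef2c, Sgk1 and Ly6c1 fall outside this rule and were named after their values were seen. So do Jun, Jund, Fosl1, Fosl2, Trib1, Klf2, Dusp5 and Nfil3. The same holds for the endothelial markers Cldn5, Flt1, Pecam1 and Slco1a4. Alternatives were other pseudocounts, filters and scalings, all 9 mice in one fit, no trend, voom weights on recovered reads, the replicate block, removal of the GC trend and leaving out each mouse.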

Additional observations from a re-analysis of the deposited data

How the results depend on the processing

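With one mouse left out, 12 of 30 member differences turned in sign in at least 1 fit and 18 did not, of which 9 were in C3H against B6, and 3 mice a strain limit every call. Of the members called in WSB against B6, 1 as reported, 0 were called with no filter on low values, with eBayes without a trend and with the replicate block. In C3H against B6, where 0 were called, 1 was called with the filter of 1 FPKM, with rescaling to total reads, with voom weights and with the replicate block, and 2 with the GC trend removed. Over the fits that leave out one mouse, members called ranged from 0 to 1 in WSB against B6 and in C3H against B6, and all genes called from 651 to 825 in WSB against B6, from 498 to 2301 in C3H against B6 and from 475 to 2002 in WSB against C3H. The median SD ranged from 0.10 to 0.22 in B6, from 0.10 to 0.21 in C3H and from 0.24 to 0.62 in WSB.

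Over all genes of at least 1 FPKM, same-numbered mice did not deviate together (correlations of -0.157 to 0.037). Averaged over the 10 genes, mice 1, 2 and 3 deviated by 0.06, -0.19 and 0.13 in B6 and by 0.01, -0.14 and 0.13 in C3H. In WSB they deviated by -0.36, 0.38 and -0.01. A pairing of the 10 genes by mouse number was not tested. With the replicate block the genes called numbered 754 in WSB against B6, 480 in C3H against B6 and 531 in WSB against C3H. Voom weights called 1488 in C3H against B6 and 1757 in WSB against C3H.

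Signs turned as follows. With the GC trend removed, Fosb in C3H against B6 had -0.029 and Nr4a1 in WSB against C3H had 0.016. Leaving out one mouse also turned signs. In WSB against B6 the value ran from -0.35 to 0.16 for Arc, from -0.36 to 0.072 for Dusp1, from -0.36 to 0.12 for Fos, from -0.33 to 0.26 for Ier2, from -0.25 to 0.19 for Junb and from -0.24 to 0.69 for Npas4. In C3H against B6 the value ran from -0.029 to 0.22 for Fosb. In WSB against C3H the value ran from -0.15 to 0.28 for Dusp1, from -0.13 to 0.15 for Egr2, from -0.12 to 0.36 for Fos, from -0.077 to 0.51 for Ier2 and from -0.14 to 0.038 for Nr4a1. The members turned by single mice were Arc and Ier2 without B6 mouse 3, Fos, Junb, Arc, Dusp1 and Ier2 without WSB mouse 1, Npas4 without WSB mouse 2 and Fos without WSB mouse 3 in WSB against B6, Fosb without B6 mouse 2 in C3H against B6, and, in WSB against C3H, Egr2 and Dusp1 without C3H mouse 2, Nr4a1 without C3H mouse 3 or WSB mouse 1, Fos, Egr2, Dusp1 and Ier2 without WSB mouse 2 and Egr2 without WSB mouse 3. None of these values passed the test, and the cause was not tested. Apart from leaving out mice, 6 member values gained a call, 3 lost it and 319 kept their sign and side of the threshold.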
